A study of Mus musculus with 12 samples.

Results

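The genes described here encode glucose and lactate transporters, the enzymes of glycolysis, enzymes that decide the fate of pyruvate and enzymes of the pentose phosphate pathway. They were taken as a list of 32 gene symbols looked up in the array annotation, out of 18194 genes in all. A probe set, the group of probes that reports a transcript, was used where it carried 1 gene symbol, and where a gene had several the brightest on average stood for it. Of the 32 genes, 29 had such a probe set, and 26 reached a log2 value of 4 on at least 2 arrays and were tested, among 9307 genes tested in all. Gpi1, Eno1 and G6pdx had no probe set with a single symbol and were not analysed here.

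Glycolysis splits glucose into pyruvate in the cytosol and yields ATP and NADH. The pentose phosphate pathway branches off at glucose 6-phosphate and supplies NADPH and the ribose of nucleotides. Resting B cells use little glucose and raise uptake and glycolysis when they are activated, and BCL6 is known as a transcriptional repressor that acts in germinal centre B cells.

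The series measured RNA of sorted splenic B cells on 12 Affymetrix arrays. Follicular (FO) cells, the recirculating majority of splenic B cells, were sorted as B220+AA4.1-CD21intCD23+. Marginal zone (MZ) cells, which respond rapidly to blood-borne antigen, were sorted as CD21highCD23low. Magnetic depletion with antibodies that included CD43, CD5, CD11b, Gr-1 and CD3 came before the sort. All mice were female, 10 weeks old, on the C57BL/6 background and carried mb1-cre(+/-), a Cre allele expressed in the B lineage, so the controls carry Cre too. Bcl6 was Bcl6(+/+) in the wild-type (wt) groups, Bcl6(+/flox) in the heterozygous (het) groups and Bcl6(flox/flox) in the homozygous (hom) groups. Each combination of cell type and genotype had 2 arrays, which gave 6 groups. Separate mice for the 2 arrays of a group are not stated in the labels, so a p-value reflects only how far these samples differ, which may be technical variation. In bulk RNA, fewer cells of a type and less RNA per cell cannot be told apart.

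Bcl6 itself had 2 probe sets that moved in opposite directions, so the array checks the genotype labels only in part. In FO cells, 1 of them read 4.94 and 5.61 in wt, 4.86 and 4.93 in het and 2.36 and 2.48 in hom arrays, on the log2 scale. In MZ cells the same probe set was at 2.22 on all 6 arrays and checks nothing there. The other probe set rose from 11.65 and 11.95 in FO wt to 12.70 and 12.88 in FO hom, and from 8.29 and 8.81 in MZ wt to 9.95 and 10.37 in MZ hom. Sorting markers followed the labels: Fcer2a, which encodes CD23, lay between 13.63 and 14.25 in FO and between 8.85 and 9.50 in MZ arrays. MZ wt replicate 1 stood apart, with Gapdh signal 6.90 log2 units higher at its 3' than at its 5' control probe set, where the other 11 arrays ran from -0.20 to 0.63. On replicate 1 of FO het, FO hom, MZ wt and MZ hom, S100a8, an abundant neutrophil transcript, read 7.55 to 9.17, against at most 2.66 on the other 8 arrays. Of 9 neutrophil markers with a probe set, 4 passed the level filter, and their mean was 5.60 to 8.11 on those 4 arrays and 2.30 to 2.34 elsewhere, while Elane, Mpo and Csf3r stayed at or under 2.30 everywhere. The lowest value was 2.21262 on every FO array and 2.21924 on every MZ array, so FO and MZ arrays may have been normalized separately. Such a difference in processing and cell type cannot be told apart.

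**Figure D1:**
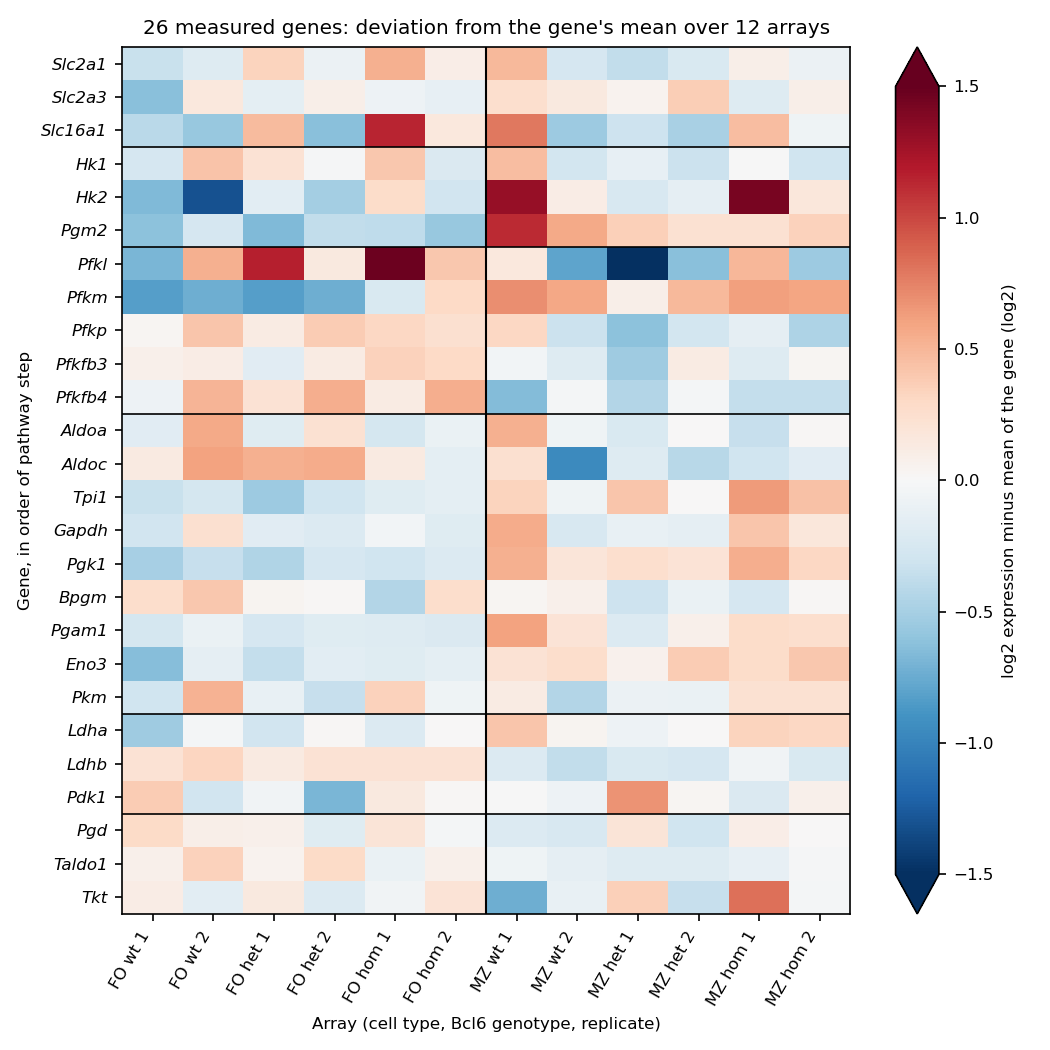
Heat map of the 26 tested genes (rows, in order of pathway step, horizontal lines between roles) on the 12 arrays (columns, FO left and MZ right of the vertical line). Colour is the log2 value minus the gene's mean over 12 arrays. Pgm2, Tpi1, Pgk1 and Eno3 are higher on all 6 MZ arrays than on all 6 FO arrays, and Ldhb is lower.

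Most of the pathway was expressed in both cell types at every genotype. The first question was whether the 2 naive B cell types differ in these genes. Over the 3 genotypes, 7 of 26 genes were higher in MZ cells and 4 were lower (limma, Benjamini-Hochberg adjusted p under 0.05 over all 9307 genes). The 7 were Hk2, Pgm2, Pfkm, Tpi1, Pgk1, Pgam1 and Eno3, of which Tpi1, Pgk1, Pgam1 and Eno3 act in the lower part of glycolysis. The 4 lower genes were Pfkp, Pfkfb4, Aldoc and Ldhb. Among all genes tested, 44.5% were called in this comparison, 16.2% higher and 28.2% lower. Of the 26 genes, 26.9% were higher and 15.4% lower. Only the share called in either direction was therefore near that of any gene. Pfkm passed the level filter through the MZ arrays, so its call is in part fixed by the filter. Among the 25 genes that met the filter within each cell type, 6 were higher (24%) and 4 lower (16%), against 12.5% and 28.2% of all such genes.

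The median change of the 26 genes was -0.02 log2 units, against -0.17 over all genes tested. Centring every array on its median moved the median of all genes to -0.01 and that of the 26 genes to 0.14, and a second quantile normalization gave -0.02 and 0.18. Under both scalings 9 of the genes were called higher and 2 lower. Among all called genes the share that was higher went from 36.5% to 54.3% and 50.7%. The changes of 6 genes, Slc2a1, Slc16a1, Aldoa, Pkm, Pgd and Tkt, went from negative to positive under both scalings. None of these genes was called without the scalings. The 11 calls also depend on the 4 arrays with neutrophil transcripts: without them 5 remained, which were Pgm2, Pfkm and Pgk1 higher and Aldoc and Ldhb lower in MZ. That fit left 4 groups with a lone array, assumed to vary like the others, and the part of neutrophil RNA in the result was not tested. Without MZ wt replicate 1 the count was 11, with Pfkl in place of Hk2. Leaving out each of the 12 arrays in turn kept the calls of Pgm2, Pfkm, Pfkfb4, Tpi1, Pgk1, Pgam1, Eno3 and Ldhb each time. Within single genotypes the counts were smaller. In wt arrays 6 of 26 were called (22.2% of all genes). Hk2, Pgm2, Pfkm, Pgk1 and Pgam1 were higher (10.7% of all genes) and Ldhb lower in MZ (11.5%). The wt calls of Hk2 and Pgam1 were near the threshold (limma adjusted p = 0.0412 and 0.0477). Both were lost with array weights, as was that of Ldhb. With each array left out in turn, the wt change ran from 1.09 to 2.29 for Hk2 and from 0.38 to 0.78 for Pgam1. In het arrays 3 were called (23.2%), Pgm2, Pfkm and Pgk1, and in hom arrays 3 (19.1%), Pgm2, Tpi1 and Pgk1. All were higher in MZ, against 9.94% of all genes in het and 8.27% in hom. Wherever Pfkm is counted in this paragraph, its call is in part fixed by the level filter. The wt count was 4 without MZ wt replicate 1 and 2 without FO wt replicate 1. The het count was 1 without FO het replicate 1 or 2, MZ het replicate 1 or MZ hom replicate 1 or 2, and 6 without either MZ wt array. The hom count was 1 without FO het replicate 1 or 2 or FO hom replicate 2, and 0 without FO hom replicate 1 or MZ hom replicate 1 or 2. Without the 4 arrays with neutrophil transcripts the wt, het and hom counts were 1, 0 and 0.

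**Figure D2:**
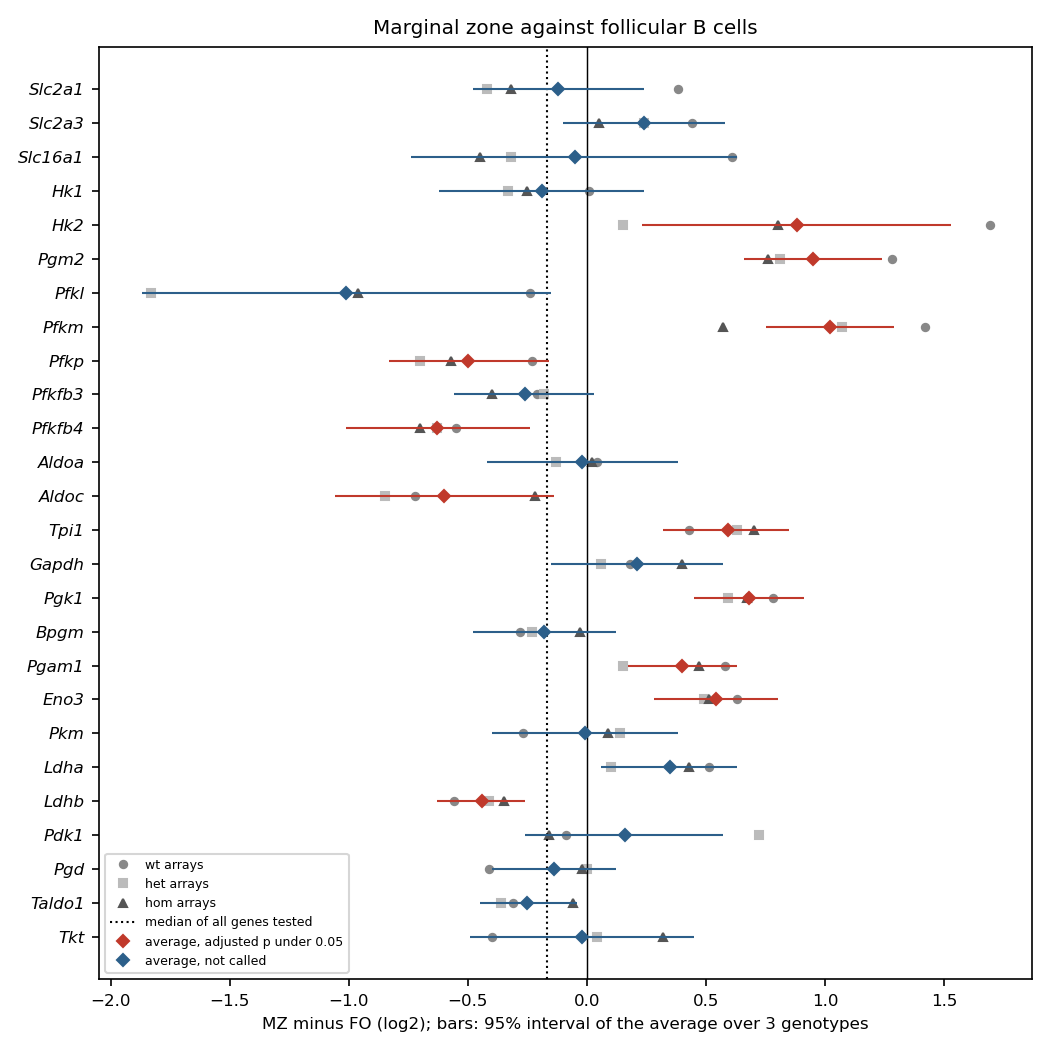
MZ minus FO change (log2, horizontal axis) of the 26 genes. Diamonds are averages over the 3 genotypes with their 95% interval, red where adjusted p was under 0.05, and grey symbols are the changes within each genotype. The 11 red genes spread to both sides of 0, and the dotted line marks the median of all genes at -0.17.

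At the step of transport, no gene was called. Slc2a1, which encodes the glucose transporter GLUT1, had group means of 11.47 (MZ het) to 12.09 (FO hom), and its MZ minus FO change was -0.12 ± 0.16 (SE). Slc2a3, which encodes the high-affinity transporter GLUT3, had group means of 10.54 to 11.00 and changed by 0.24 ± 0.15; it was called higher in MZ under both scalings above. Slc16a1, which encodes the lactate transporter MCT1, had group means of 8.63 to 9.77 and changed by -0.05 ± 0.30. Slc16a3, the lactate exporter MCT4, was below the filter with a highest value of 2.50.

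Hexokinases phosphorylate glucose as it enters the cell. Hk1, the constitutive form, had group means of 8.44 to 8.77 with no change called (-0.19 ± 0.19), and Hk3 was below the filter, with 1 array above 4 at 4.43. Hk2, the inducible hexokinase, read 6.53 and 5.88 in FO wt, 7.03 and 6.68 in FO het, and 7.47 and 6.90 in FO hom. It read 8.50 and 7.30 in MZ wt, 6.95 and 7.06 in MZ het, and 8.61 and 7.36 in MZ hom. The highest values were replicate 1 of MZ wt and of MZ hom, and the FO and MZ ranges overlapped. The average MZ minus FO change was 0.88 ± 0.29, or 1.84-fold (limma adjusted p = 0.0347). The call was kept in 4 of the 12 fits that left out an array. It was lost without FO wt replicate 2, FO het replicate 1 or 2, FO hom replicate 2, MZ wt replicate 1, MZ het replicate 1 or 2, or MZ hom replicate 1, with adjusted p up to 0.0885.

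Pgm2, a phosphoglucomutase that also acts on pentose phosphates, was higher in MZ cells at every genotype. It read 6.45 and 6.82 in FO wt, 6.40 and 6.70 in FO het and 6.68 and 6.50 in FO hom. In MZ cells it read 8.18 and 7.64 in wt, 7.42 and 7.30 in het and 7.30 and 7.41 in hom. Every MZ array was above every FO array. The average change was 0.95 ± 0.13, or 1.93-fold (limma adjusted p = 0.000439), and Pgm2 was called within each genotype, at 1.28 in wt, 0.81 in het and 0.76 in hom. With each array left out in turn these calls were kept in 12, 6 and 4 of 12 fits; those lost in het and hom were without an FO het, MZ het or MZ hom array, and in hom also without an FO hom array (adjusted p up to 0.161 and 0.200).

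At phosphofructokinase, the committed step of glycolysis, the isoenzyme genes were read separately. Pfkm, the muscle-type subunit, read 2.94 and 3.03 in FO wt, 2.94 and 3.03 in FO het, and 3.54 and 4.06 in FO hom. In MZ cells it read 4.46 and 4.35 in wt, 3.86 and 4.25 in het, and 4.38 and 4.36 in hom. These values lie close to the lower limit of the array, and Pfkm reached the level filter on 5 MZ arrays and 1 FO array, which makes it the gene just inside the filter; Hk3 lies just outside. The fit gave an average change of 1.02 ± 0.12 (limma adjusted p = 0.000171), which is no independent evidence of a difference, since a gene so low in FO cells was tested only because it was higher in MZ cells. After a second quantile normalization the change was 0.36 (adjusted p = 0.052), with 0.72 in wt, 0.27 in het and 0.08 in hom in place of 1.42, 1.07 and 0.57.

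Pfkp, the platelet-type subunit, read 9.49 and 9.88 in FO wt, 9.59 and 9.84 in FO het, and 9.77 and 9.70 in FO hom. It read 9.77 and 9.14 in MZ wt, 8.85 and 9.19 in MZ het, and 9.33 and 9.0 in MZ hom. All MZ arrays but replicate 1 of wt were below every FO array. The change was -0.50 ± 0.15 (limma adjusted p = 0.0239). It lost its call when arrays were centred (adjusted p = 0.0669), after quantile normalization, and without FO wt replicate 2, FO het replicate 2, FO hom replicate 1, MZ het replicate 1 or MZ hom replicate 2 (adjusted p up to 0.0663). Pfkl, the liver-type subunit, had the widest span of group means, from 5.68 in MZ het to 7.80 in FO hom, with differences of 0.94 to 1.21 between the 2 arrays of every group. Its change was -1.01 ± 0.38 and was not called (limma adjusted p = 0.0569), while its other probe set above the filter gave -1.36 ± 0.15. That other probe set read 4.94 to 4.95 on all MZ arrays but MZ hom replicate 1 (5.69), so its SE may be too small.

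Pfkfb3 and Pfkfb4 encode bifunctional enzymes that set the level of fructose 2,6-bisphosphate, an activator of phosphofructokinase. Pfkfb4 read 7.97 and 8.55 in FO wt, 8.26 and 8.59 in FO het, and 8.17 and 8.59 in FO hom. It read 7.39 and 8.01 in MZ wt, 7.60 and 8.01 in MZ het, and 7.68 and 7.68 in MZ hom. The lowest FO array was just below the highest MZ arrays, and the other FO arrays were above all of them. The change was -0.63 ± 0.17, or 1.55-fold lower in MZ (limma adjusted p = 0.0159). Pfkfb3 had group means of 8.57 to 9.10 and was not called (-0.26 ± 0.13).

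**Figure D3:**
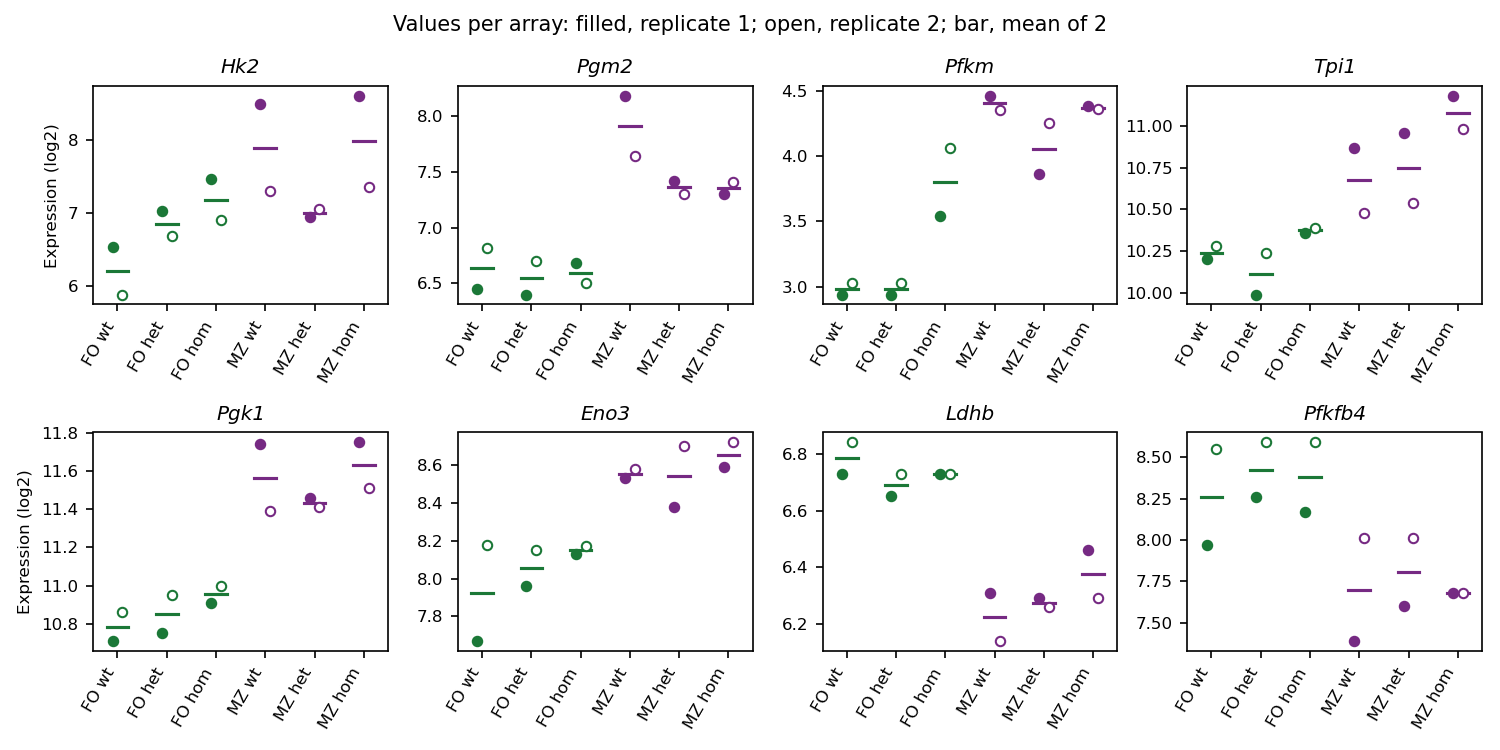
Log2 expression (vertical axes, each panel with its own range) of 8 genes in the 6 groups, FO in green and MZ in purple. Filled points are replicate 1, open points replicate 2 and bars the mean of 2. Pgk1, Tpi1, Pgm2 and Eno3 show all purple points above all green points, Ldhb shows the reverse, and Hk2 differs by 1.20 and 1.24 between the 2 arrays of MZ wt and of MZ hom.

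In lower glycolysis, from aldolase to pyruvate kinase, Pgk1, Tpi1, Eno3 and Pgam1 were higher in MZ cells. Pgk1 encodes phosphoglycerate kinase, the first ATP-yielding step. It read 10.71 and 10.86 in FO wt, 10.75 and 10.95 in FO het, and 10.91 and 11.00 in FO hom. It read 11.74 and 11.39 in MZ wt, 11.46 and 11.41 in MZ het, and 11.75 and 11.51 in MZ hom. The cell types did not overlap, and Pgk1 was called in each genotype (0.78 in wt, 0.59 in het, 0.67 in hom). In 12 fits without an array these calls were kept in 10, 2 and 8 (adjusted p up to 0.0752, 0.187 and 0.164); the wt call was lost without FO wt replicate 1 or MZ wt replicate 1, the het call except without an MZ wt array, and the hom call without any FO hom or MZ hom array. The average change was 0.68 ± 0.10, or 1.60-fold (limma adjusted p = 0.000753), and its 3 probe sets gave 0.61 to 0.70.

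Tpi1, triosephosphate isomerase, read 10.20 and 10.28 in FO wt, 9.99 and 10.24 in FO het, and 10.36 and 10.39 in FO hom. It read 10.87 and 10.48 in MZ wt, 10.96 and 10.54 in MZ het, and 11.18 and 10.98 in MZ hom. The lowest MZ array was above the highest FO array. The average change was 0.59 ± 0.12, or 1.51-fold (limma adjusted p = 0.00378), and its 3 probe sets gave 0.51 to 0.59.

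Eno3, the muscle-type enolase, read 7.67 and 8.18 in FO wt, 7.96 and 8.15 in FO het, and 8.13 and 8.17 in FO hom. It read 8.53 and 8.58 in MZ wt, 8.38 and 8.70 in MZ het, and 8.59 and 8.72 in MZ hom. Again no MZ array fell into the FO range, and the change was 0.54 ± 0.11 (limma adjusted p = 0.00525). Eno2, the neuronal enolase, was at the array's lower limit, with a highest value of 2.22.

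Pgam1, phosphoglycerate mutase, read 10.78 and 10.94 in FO wt, 10.79 and 10.86 in FO het, and 10.84 and 10.82 in FO hom. It read 11.64 and 11.24 in MZ wt, 10.83 and 11.12 in MZ het, and 11.31 and 11.29 in MZ hom. MZ het replicate 1 lay within the FO range and the other MZ arrays above it. The change was 0.40 ± 0.10 (limma adjusted p = 0.0126).

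Aldoc, the brain-type aldolase, read 6.46 and 6.93 in FO wt, 6.86 and 6.89 in FO het, and 6.46 and 6.18 in FO hom. It read 6.57 and 5.38 in MZ wt, 6.14 and 5.91 in MZ het, and 6.03 and 6.16 in MZ hom. The change was -0.60 ± 0.20 (limma adjusted p = 0.0404). This call was kept in 3 of the 12 fits without an array, those that left out FO wt replicate 1 or an MZ wt array, and was lost in the other 9 (adjusted p up to 0.101) and when arrays were centred (0.107). Aldoa, the main aldolase of most tissues, had group means of 11.99 to 12.41 and a change of -0.02 ± 0.18, and its 5 probe sets gave -0.17 to 0.16.

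Gapdh, represented by its 3' control probe set, read 12.51 and 13.03 in FO wt, 12.63 and 12.59 in FO het, and 12.75 and 12.61 in FO hom. It read 13.35 and 12.55 in MZ wt, 12.68 and 12.66 in MZ het, and 13.21 and 12.96 in MZ hom. The groups overlapped and the change of 0.21 ± 0.16 was not called. It was 0.37 when arrays were centred and 0.43 after a second quantile normalization. The 5' and middle probe sets gave -0.70 and -0.10, and on MZ wt replicate 1 they read 6.45 and 9.58 against 12.39 or more and 11.71 or more on the other arrays. Bpgm (-0.18 ± 0.13) and Pkm (-0.01 ± 0.17), which encode bisphosphoglycerate mutase and the pyruvate kinase of most tissues, were not called.

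Both lactate dehydrogenase subunits were measured. Ldhb, the heart-type subunit, read 6.73 and 6.84 in FO wt, 6.65 and 6.73 in FO het, and 6.73 and 6.73 in FO hom. It read 6.31 and 6.14 in MZ wt, 6.29 and 6.26 in MZ het, and 6.46 and 6.29 in MZ hom. All MZ arrays were below all FO arrays, and the change was -0.44 ± 0.08, or 1.36-fold lower (limma adjusted p = 0.00254). FO wt replicate 1, FO het replicate 2 and both FO hom arrays held the same value, 6.7258, so the SE may be too small. The other Ldhb probe sets read 2.79 or less on every array. Ldha, the muscle-type subunit, had group means of 11.07 in FO wt to 11.68 in MZ hom; its change of 0.35 ± 0.12 did not pass the threshold (limma adjusted p = 0.0505) but did after either scaling. Pdk1, which encodes a kinase that inhibits pyruvate dehydrogenase, had group means of 10.11 to 10.83 and a change of 0.16 ± 0.18.

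No gene of the pentose phosphate pathway was called. Pgd, which makes NADPH by oxidizing 6-phosphogluconate, changed by -0.14 ± 0.11 between group means of 10.70 and 11.11. Taldo1, transaldolase, changed by -0.25 ± 0.09 (limma adjusted p = 0.0561). Tkt, transketolase, changed by -0.02 ± 0.21, with its group means running from 12.54 in MZ wt to 13.36 in MZ hom.

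Of 11 genes with several probe sets above the filter, 5 had the same sign in all of them, which were Pfkl, Pgk1, Slc2a1, Slc2a3 and Tpi1. Aldoa, Bpgm, Gapdh, Pdk1, Pgd and Tkt had probe sets of both signs, and none of these was called. Of the 26 genes, 18 had the same sign of change in all 3 genotypes (69.2%), as did 69.0% of all genes tested. All 6 MZ arrays lay outside the range of the 6 FO arrays for Pgm2, Tpi1, Pgk1, Eno3 and Ldhb, 19.2% of the genes against 28.4% of all genes.

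RefSeq promoter sequence was at hand for 31 of the 32 genes, and a script searched the 250 bases before each start on both strands. The windows of Pgm2, Pgk1 and Ldhb are shown because these are the genes with a single listed start whose calls held without each array in turn and without the 4 arrays with neutrophil transcripts. Capitals mark ACGTG or its reverse complement, the core of the hypoxia response element.
Pgm2 (GRCm38.p6, chr5:64092689-64092938, plus strand): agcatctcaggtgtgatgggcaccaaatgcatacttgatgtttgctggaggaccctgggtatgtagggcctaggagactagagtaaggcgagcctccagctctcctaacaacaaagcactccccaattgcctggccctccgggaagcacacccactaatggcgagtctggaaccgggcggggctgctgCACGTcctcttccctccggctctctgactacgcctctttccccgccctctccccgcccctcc
Pgk1 (GRCm38.p6, chrX:106186850-106187099, plus strand): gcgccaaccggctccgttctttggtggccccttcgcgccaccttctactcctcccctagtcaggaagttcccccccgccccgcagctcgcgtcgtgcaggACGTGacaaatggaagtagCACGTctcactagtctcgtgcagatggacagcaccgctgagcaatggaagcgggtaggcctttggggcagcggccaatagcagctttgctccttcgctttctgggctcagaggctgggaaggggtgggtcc
Ldhb (GRCm38.p6, chr6:142507958-142508207, minus strand): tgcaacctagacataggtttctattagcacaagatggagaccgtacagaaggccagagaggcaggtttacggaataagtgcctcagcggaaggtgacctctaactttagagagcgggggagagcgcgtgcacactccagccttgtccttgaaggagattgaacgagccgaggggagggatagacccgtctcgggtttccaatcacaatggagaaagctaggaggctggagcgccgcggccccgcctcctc
Pgk1 holds 2 such matches, 150 and 131 bases before the start, Pgm2 holds 1 at 62 bases, and Ldhb holds 0. Over the 45 windows of the 31 genes, 16 held ACGTG (35.6%), against 16.6% of 32851 windows of all genes. They belong to Slc2a1, Slc16a1, Slc16a3, Hk2, Hk3, Pgm2, Pfkm, Pfkfb3, Aldoa, Pgk1, Pgam1, Pkm and Ldha, of which some were higher in MZ cells and others not called or below the filter. CACGTG, which contains ACGTG and is the E-box that MYC family proteins bind, was in 4 windows (8.89%, against 6.02% of all). TTCCTAGAA and TTCTTAGAA, forms of the BCL6 site, were in 0 of the 45 windows, and in 0.347% and 0.399% of all windows. These are matches of letters and say nothing on binding.

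The second question was whether deletion of Bcl6 changed these genes. No gene of the list was called by limma in any comparison between genotypes. In FO cells, hom against wt, 0 of 26 passed, with 0.43% of all genes called and 1 of the 26 at an unadjusted p under 0.05. In MZ cells, hom against wt, 0 of 26 passed (0.0645% of all genes), with 2 at an unadjusted p under 0.05. For the average over both cell types these were 0 (0.462%) and 1. For het against wt they were 0 and 0 in FO (0% of all genes) and 0 and 2 in MZ (0.0107%). For hom against het they were 0 and 1 in FO (0.0752%) and 0 and 0 in MZ (0.0322%). The deletion effect in MZ minus that in FO gave 0 and 1 (0.0107%). All these percentages refer to adjusted p. At an unadjusted limma p under 0.05, hom against wt had 649 of all 9307 genes in FO and 566 in MZ. The average over both cell types had 844. Het against wt had 184 in FO and 287 in MZ, and hom against het had 282 and 506. The difference of the deletion effects had 348. The counts of 0 also held in every alternative run.

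**Figure D4:**
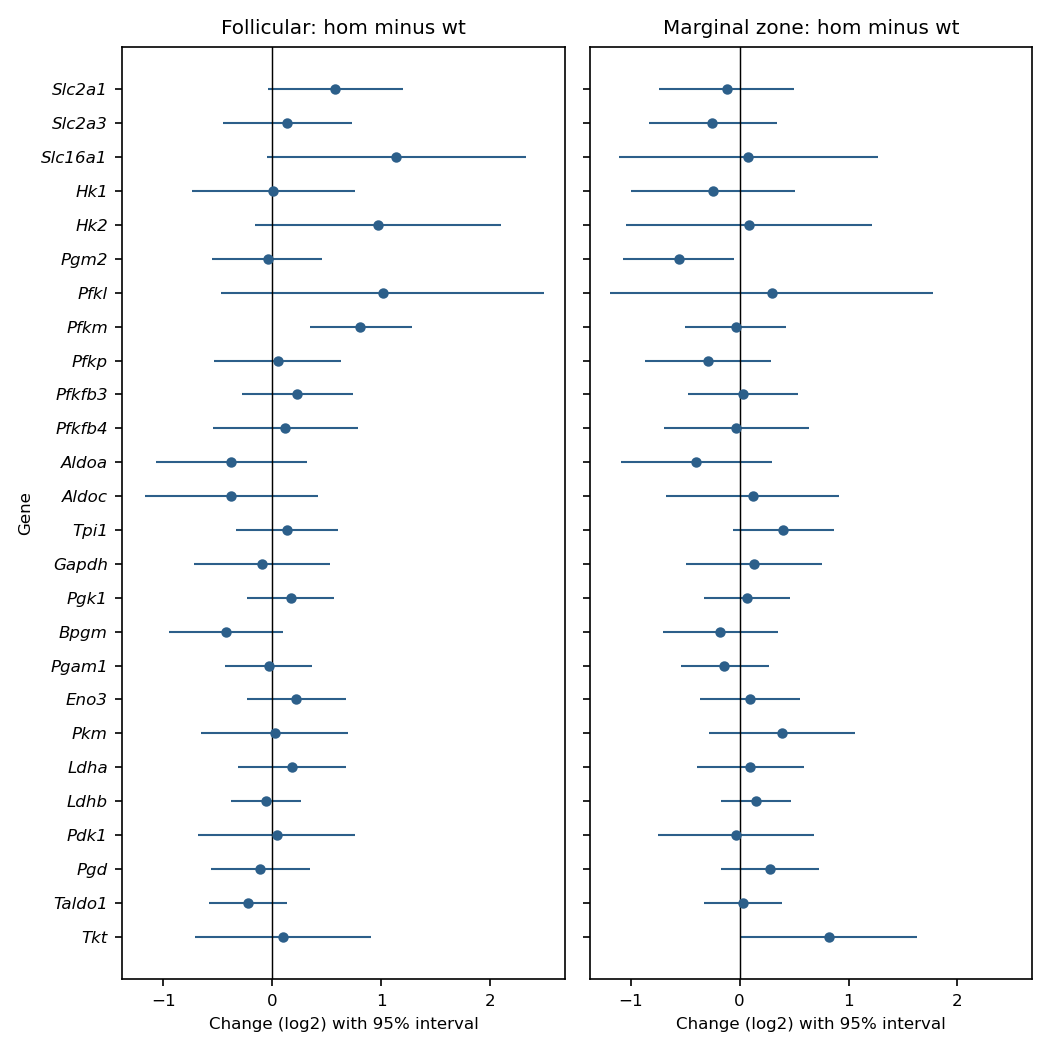
Change with homozygous deletion (hom minus wt, log2) of the 26 genes in FO (left) and MZ cells (right), with 95% intervals from the model. Slc16a1 at 1.14 and Pfkl at 1.02 in FO have the widest intervals, and no gene passed adjusted p of 0.05.

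The size of change that the data leave possible differed between genes. In FO cells the 95% interval of hom minus wt lay within ± 1 log2 unit, a 2-fold change, for 19 of 26 genes, and in MZ cells for 18. SEs ran from 0.14 to 0.65 in both. A value that misses the threshold does not show that a gene was unchanged.

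Pfkm had the smallest unadjusted limma p in FO cells (0.00354), at 0.81 ± 0.20 (interval 0.35 to 1.28, limma adjusted p = 0.216). Its FO hom arrays read 3.54 and 4.06 against 2.94 and 3.03 in wt. These values lie close to the lower limit of the array, and 1 FO array reached the level filter. The FO het arrays repeated the 2 values of FO wt, so the SE may be too small. After a second quantile normalization the Pfkm change was 0.55. Slc16a1 read 8.71 and 8.55 in FO wt, 9.59 and 8.49 in FO het, and 10.26 and 9.28 in FO hom. Both FO hom arrays were above both wt arrays, and the change of 1.14 ± 0.52 had an interval of -0.05 to 2.33 (limma adjusted p = 0.759). In MZ cells Slc16a1 read 9.91 and 8.57 in wt, 8.81 and 8.63 in het, and 9.58 and 9.06 in hom, a hom minus wt change of 0.08 ± 0.52. Hk2 in FO cells changed by 0.97 ± 0.49 and Slc2a1 by 0.58 ± 0.27, neither called (limma adjusted p = 0.825 and 0.774). The hom and wt arrays did not overlap in FO cells for 9 of the 26 genes, against 33.9% of all genes; 7 were higher (Slc2a1, Slc16a1, Hk2, Pfkm, Pfkfb3, Tpi1 and Pgk1, against 18% of all genes) and 2 lower (Bpgm and Taldo1, against 15.9%). FO hom replicate 1, the array with the highest S100a8, also gave the highest Slc16a1, Slc2a1 and Pfkl of all 12 arrays, and the part of this array in these differences was not tested.

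In MZ cells, hom against wt, Tkt had a change of 0.82 ± 0.36 (interval 0.01 to 1.63) and Pgm2 of -0.56 ± 0.22 (-1.07 to -0.05), both with a limma adjusted p of 0.801. The other Tkt probe sets differed in sign, with 1.19 ± 0.50 and, for the dimmest (at most 5.33), -0.57 ± 0.58. Tkt read 12.23 and 12.85 in MZ wt, 13.32 and 12.62 in MZ het, and 13.79 and 12.93 in MZ hom. The lowest value was on MZ wt replicate 1, the array with the large Gapdh 3' minus 5' difference. The hom and wt arrays did not overlap for 8 of 26 genes, against 31.2% of all genes.

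MZ hom against MZ het was the comparison in which most of these genes leaned to the same side. Of 26 genes 21 had a positive change (80.8%, against 50.3% of all genes). The hom and het arrays did not overlap for 13 of the 26 (50%), all higher in hom. Among all genes 18.4% did not overlap and were higher. The median was 0.14, with 0.00 over all genes, and the smallest p of the 26 was 0.0802 (Hk2). The changes were 0.98 for Hk2, 1.15 for Pfkl, 0.33 for Pgam1, 0.36 for Ldha and 0.41 for Gapdh. On the same arrays 20 of 20 cell cycle genes and 13 of 15 immediate early genes were also higher in hom, with medians of 1.40 and 1.47 and 0 called in either. The mean of the immediate early genes was 8.52 and 10.20 on the MZ het arrays and 11.73 and 10.35 on the MZ hom arrays. Their part in the lean of the glycolysis genes was not tested. S100a8 read 7.63 and 2.42 on the MZ hom arrays and 2.5 on each MZ het array. The part of this array split in the lean was not tested either.

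The 2 arrays of a group differed more for some of these genes than the genotypes did. Slc16a1 and Pgd were higher on replicate 1 than on replicate 2 in all 6 groups, and Eno3 was lower in all 6. Pfkfb4 was lower in 5 groups and equal in MZ hom. Among all genes 6.44% were higher on replicate 1 in all groups and 8.07% lower. For Slc16a1 the difference was 1.10 in FO het, 0.98 in FO hom, 1.35 in MZ wt and 0.53 in MZ hom, the groups whose replicate 1 held neutrophil transcripts. It was 0.16 in FO wt and 0.18 in MZ het. Slc2a1 showed the same split, with 0.42, 0.44, 0.74 and 0.19 in those 4 groups and -0.14 in each of the others. Pfkl was higher on replicate 1 by 0.94 to 1.07 in the 4 groups, and lower by 1.21 in FO wt and by 1.10 in MZ het. Immediate early genes, which rise within minutes of stimulation, split the same way. Their mean was 11.83, 11.97, 11.53 and 11.73 on replicate 1 of the 4 groups and 10.92, 11.05, 10.74 and 10.35 on replicate 2, and it was 9.75 and 12.06 in FO wt and 8.52 and 10.20 in MZ het. Atf3, a stress-induced transcription factor among them, read 8.57, 10.39, 12.80 and 12.20 on replicate 1 of the 4 groups against 3.39, 4.79, 6.24 and 6.43 on replicate 2, with 3.46 and 4.20 in FO wt and 2.69 and 4.65 in MZ het. These were read from the data after their values were seen, and which property of the arrays they follow was not tested.

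**Figure D5:**
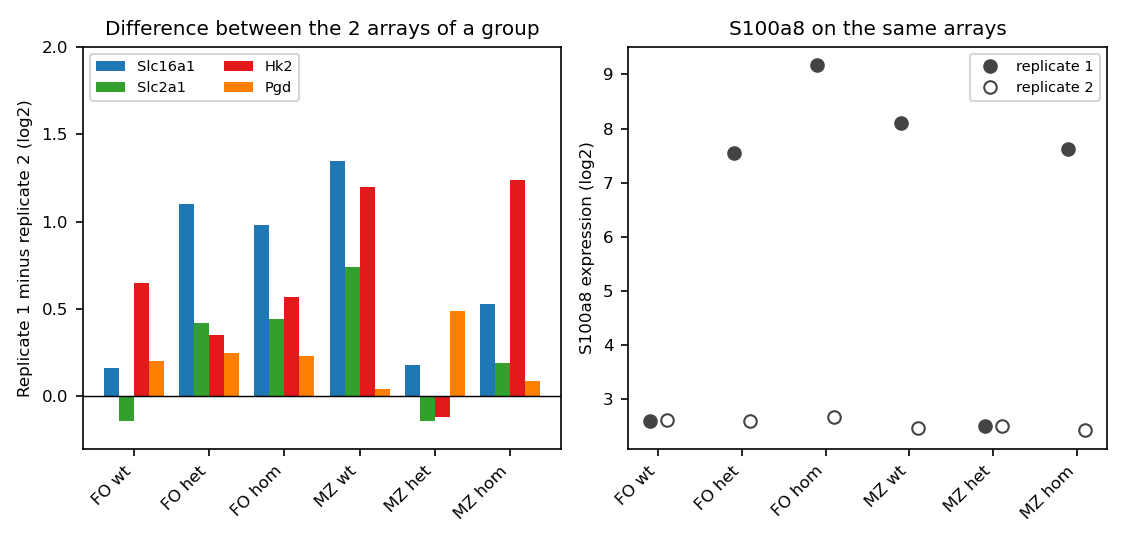
Left, replicate 1 minus replicate 2 (log2) of Slc16a1, Slc2a1, Hk2 and Pgd in each of the 6 groups. Right, log2 expression of S100a8 on the same arrays, filled for replicate 1 and open for replicate 2. Slc16a1 differs by 0.53 to 1.35 in the 4 groups with S100a8 at 7.55 to 9.17 on replicate 1, and by 0.16 and 0.18 in FO wt and MZ het.

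Genes next to the pathway were read the same way, from lists that are given by counts. Of 25 other sugar metabolism genes, 4 were higher and 8 lower in MZ cells over the 3 genotypes, which is 16% and 32% of the list against 16.2% and 28.2% of all genes. Galm, Slc2a6 and Pygl met the level filter in 1 cell type only. Of the 22 genes that met it in both, 3 were higher and 6 lower. These are 13.6% and 27.3%, against 12.5% and 28.2% of all such genes. Slc2a6, a glucose transporter of the GLUT family, read 6.95 to 7.44 in FO and 2.94 to 2.97 in MZ cells, where it was below the filter and nearly constant, so the difference has no measured size. Galm, which interconverts the anomers of hexoses, was at 2.21 on all 6 FO arrays and 4.79 to 6.83 on MZ arrays, so its difference has no measured size either. H6pd, the glucose 6-phosphate dehydrogenase of the endoplasmic reticulum, rose by 1.26 ± 0.10, Pfkfb2 by 1.09 ± 0.15 and Minpp1 by 0.47 ± 0.10. H6pd lay just above the filter in FO cells. It read 4.54 on FO wt replicate 2, both FO het arrays and FO hom replicate 1, so its SE may be too small. Those lower were Pgm2l1 (-1.61), the glycogen genes Gbe1 (-1.61), Ugp2 (-1.02) and Pygb (-0.80), Slc16a7 (-1.41), Rpia (-0.61), Slc2a6 and the glycogen phosphorylase gene Pygl, which was at or under 3.31 on every MZ array.

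Of 10 genes for pyruvate entry into mitochondria, 0 were higher and 4 lower in MZ cells (40%, against 28.2% of all genes). Pdp1, the phosphatase that activates pyruvate dehydrogenase, fell most, by 2.24 ± 0.24 on the log2 scale, from 6.43 to 6.87 in FO to 3.78 to 5.60 in MZ. Pdhb (-0.32), Pdp2 (-0.39) and the pyruvate carrier subunit Mpc1 (-0.50) were the others. Of 16 genes of the TCA cycle, Dlst was higher (0.53 ± 0.10) and Fh1, Idh3g and Sucla2 lower (-0.46, -0.27 and -0.29). These are 6.25% and 18.8% of the list, against 16.2% and 28.2% of all genes.

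Among 20 regulators, Myc, an activator of glycolysis genes, was higher in MZ cells by 1.51 ± 0.50 (limma adjusted p = 0.0361), and 6 were lower. These are 5% and 30% of the list, against 16.2% and 28.2% of all genes, so the lower share was near that of any gene. Myc read 10.18 to 13.21 on FO and 12.03 to 14.86 on MZ arrays, with overlap. Replicates 1 and 2 read 12.72 and 11.28 in FO het, 13.21 and 12.16 in FO hom, 14.86 and 13.19 in MZ wt, and 14.14 and 13.24 in MZ hom. In FO wt and MZ het replicate 1 was the lower, at 10.18 against 12.14 and 12.03 against 13.29. Which property of the arrays this follows was not tested. Within single genotypes Myc was called in wt only. The 6 lower regulators were Prkaa1 (-0.63), Txnip (-0.89), Egln1 (-0.52), Egln2 (-0.36), Mlxip (-0.54) and Keap1 (-0.74), and Txnip encodes an inhibitor of glucose uptake. Hif1a, the hypoxia-inducible activator of many of these genes, changed by -0.10 ± 0.10. Of 11 hypoxia targets outside the glycolysis genes, Ero1a was higher (0.61 ± 0.12) and 5 were lower (45.5%, against 28.2% of all genes). The 5 were Ndrg1, Bnip3 (-2.05), Ankrd37 (-1.39), Mxi1 (-1.07) and Kdm3a (-0.70). Ndrg1 read 3.68 to 7.09 in FO cells and 2.47 to 2.69, below the filter, in MZ cells, so its difference has no measured size. The median of the 11 targets was -0.53, against -0.02 for the glycolysis and pentose phosphate genes and -0.17 for all genes.

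Of 20 cell cycle genes, 14 were higher in MZ cells (70%, against 16.2% of all genes), and 0 were lower. Of the 15 that met the level filter in both cell types 9 were higher (60%, against 12.5% of all such genes). Their mean was 6.17 to 6.89 on FO and 7.67 to 9.75 on MZ arrays. Of 15 immediate early genes, with array means of 8.52 to 12.06, 0 were higher (against 16.2% of all genes) and 5 lower (33.3%, against 28.2%). Their part in the MZ and FO difference of the glycolysis genes was not tested. No gene of these lists was called in a comparison between genotypes.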

How the data were processed

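Per the labels' protocols, TRIZOL was used to extract RNA and the GeneChip 3'IVT Express Kit to label it. The authors deposited log2 expression per probe set, which the submitters' processing notes credit to GCRMA, with a version not given in the sources used here. This method subtracts background predicted from probe sequence and equalizes the distributions of arrays, so low values collect at a minimum where an SD near 0 can make p-values too small. Of 45101 probe sets, 34958 had 1 symbol, 932 several and 9211 none listed, and 34754 matched the RefSeq gene table. Levels of different genes were not compared.

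Group means were fitted to all 12 arrays with limma 3.58.1 (lmFit, eBayes; R 4.3.3) with 6 residual degrees of freedom. Tests were two-sided, with Benjamini-Hochberg adjustment over 9307 genes. Changes are log2 differences ± SE. Values on every array are given for genes called in any of 12 comparisons and for Gapdh. Outside this rule, Slc16a1 is given on every array and Tkt on the MZ arrays. Of other lists, called genes are named, except cell cycle and immediate early genes, which are given by counts. Hif1a and Atf3 are named though not called. The fit was tested on simulated arrays. The number of arrays limits the precision. Genes, lists and rules were chosen with earlier results of these data known. Replicate numbers did not pair samples throughout. Correlations of same-numbered deviations were 0.45 to 0.77 among the 4 groups with neutrophil transcripts on replicate 1 (6 pairs), 0.58 between the others, FO wt and MZ het, and -0.26 to 0.12 between these 2 sets (8 pairs). The fit has no term for this split. Alternatives covered filters, probe set choice, variance moderation, array weights, scaling, arrays used, a replicate block and leaving out arrays. Leaving out control probe sets, and leaving out the 4 arrays with neutrophil transcripts, were chosen after seeing the data.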

Additional observations from a re-analysis of the deposited data

Results flagged for a closer look

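Hk2 moved in opposite directions in the 2 cell types when het was set against wt. Both FO het arrays (7.03 and 6.68) were above both FO wt arrays (6.53 and 5.88), a change of 0.64, and both MZ het arrays (6.95 and 7.06) were below both MZ wt arrays (8.50 and 7.30), a change of -0.90. The MZ change minus the FO change was -1.54. This difference was not tested, and neither change was called. Without MZ wt replicate 1, the array with the large Gapdh 3' minus 5' difference and with neutrophil transcripts, the MZ change was -0.30 and the MZ change minus the FO change was -0.94.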

How the results depend on the processing

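The 0 calls in the comparisons of genotype held in every alternative. For MZ against FO over the 3 genotypes, the count of 11 stayed between 8 and 13 with each array left out and between 9 and 13 under other filters, probe set choices, variance models, weights, scalings and the replicate block, and was 5 without the 4 arrays with neutrophil transcripts. In wt arrays the 6 calls became 3 with array weights, 1 with the arrays of only the 2 groups and 1 without those 4 arrays, and 2 to 5 with each array left out. In het arrays the 3 calls became 8 with no filter on low values, 1 with a filter at log2 6, 7 with array weights, 5 with centred arrays, 5 with a replicate block and 0 without the 4 arrays, and 1 to 6 with each array left out. In hom arrays the 3 calls became 8 with no filter, 1 with a filter at 6, 0 with the highest-variance probe set, 6 with centred arrays, 6 with a second quantile normalization, 1 with only the 2 groups and 0 without the 4 arrays, and 0 to 3 with each array left out. The causes were not tested. With the replicate block the counts over genotypes and in wt, het and hom were 13, 8, 5 and 4; the samples share only a number. No called change reversed its sign in any alternative. Signal near the array's lower limit restricts Pfkm, repeated values on FO arrays restrict Ldhb, and 2 arrays per group restrict every comparison.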
